A study of Mus musculus with 9 samples.

Results

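The genes described here encode aminoacyl-tRNA synthetases, the enzymes that load each transfer RNA with its amino acid before translation. They were taken from a list of 36 mouse genes, 20 for cytosolic enzymes and 16 for mitochondrial ones, and all 36 were found among the 21909 gene symbols of the expression tables. The family was chosen by its FPKM in these same tables, where the mitochondrial leucine gene Lars2 had been seen very high in 1 library. Levels and ratios of these genes are therefore a description, and no test was made on them.

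The main olfactory epithelium of mice at the age of 4 weeks had been sorted into 3 cell populations, and 1 messenger RNA library of each was sequenced. Horizontal basal cells (HBC), a reserve stem cell layer, were taken as cells stained by a PE-labelled antibody to CD54, the protein of Icam1. Globose basal cells and neuronal precursors (GBC) were taken as cells positive for a Neurog1-EGFP reporter, and mature olfactory sensory neurons (mOSN) as cells positive for an OMP-ires-EGFP reporter. Libraries were made from poly-A RNA, with the ScriptSeq kit for HBC and an Illumina mRNA kit for both GBC and mOSN. Kit and population cannot be told apart in any comparison with HBC. In sorted bulk samples, fewer cells of a type and less RNA per cell cannot be told apart either. With 1 library per population there is no replicate check, and the intervals printed below cover counting error only.

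Aminoacyl-tRNA synthetases fall into a pair of unrelated families, class I and class II, each with its own fold of the catalytic domain. In the cytosol of animals, several of the enzymes are held with scaffold proteins in a multi-synthetase complex, and Eprs carries the glutamate and proline activities in 1 protein. Mitochondria translate their own messages with separate, nuclear-encoded synthetases, except that Gars and Kars serve both compartments and that glutaminyl-tRNA is made in mitochondria by an amidotransferase. Many cytosolic synthetase genes are known targets of ATF4, the transcription factor of the amino acid response.

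The element through which ATF4 and C/EBP proteins are known to act has the core TGATGNAA, where N is any base. It was searched on either strand from 250 bases before to 50 bases after the RefSeq start site (build GRCm38.p6), in the 27 members that the promoter table holds. The 9 members without an entry were Cars, Hars, Hars2, Lars, Nars, Pars2, Rars, Vars and Wars. The core stood in 5 of 13 cytosolic genes (38.5%), in 0 of 14 mitochondrial genes and in 4.51% of 27025 genes of the table. A matching stretch of each gene is shown because these genes return among the ratios below. Each reads 5′ to 3′ in the direction of the element, with the core in capitals, and positions count from the start site.
Aars, chr8:111033840-111033869, minus strand, core from 10 to 17: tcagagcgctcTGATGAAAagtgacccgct
Gars, chr6:55037960-55037989, minus strand, core from -30 to -23: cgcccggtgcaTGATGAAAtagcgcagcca
Iars, chr13:49682126-49682155, minus strand, core from 8 to 15: gcgtctggaggTGATGCAAtactgacagtg
Tars, chr15:11399655-11399684, plus strand, core from -15 to -8: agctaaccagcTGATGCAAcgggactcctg
Yars, chr4:129189895-129189924, plus strand, core from 4 to 11: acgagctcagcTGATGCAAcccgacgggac
The Yars core lay on the strand of its gene, and the others on the opposite strand. The genes for isoleucine, threonine and tyrosine had TGATGCAA within 15 bases of the start site on either side.

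Values were FPKM (fragments scaled by transcript length and library depth), so levels of different genes can be set side by side. The deposited intervals imply 18123431 fragments for the HBC library, 18087151 for GBC and 16515948 for mOSN. Each sort gene was highest in its own library. Icam1 had 136, 0.0456 and 0.349 FPKM in HBC, GBC and mOSN, Neurog1 had 0.0538, 163 and 0.0189 FPKM, and Omp had 71.6, 427 and 1487 FPKM. The marker lists went with the labels: 6 horizontal basal cell markers summed to 1081, 1.37 and 2.84 FPKM in HBC, GBC and mOSN, 7 precursor markers to 11.8, 909 and 164 FPKM, and 7 mature neuron markers to 138, 1023 and 6794 FPKM. Markers of other cell types were high in HBC as well. The 12 genes of a macrophage and monocyte list, each at 43.0 FPKM or more in HBC, summed to 4015 FPKM there, to 6.29 FPKM in GBC and to 4.74 FPKM in mOSN, where 1 of them was at 0. Likewise 8 immediate early genes, which are known to respond to tissue dissociation, summed to 3692 FPKM in HBC, 371 FPKM in GBC and 470 in mOSN, and 6 sustentacular markers to 1781, 39.5 and 145 FPKM. Most of the sustentacular sum in HBC came from Cbr2 (881 FPKM) and Cyp2f2 (748 FPKM). Cyp2g1 (11.1, 7.76 and 46.1 FPKM) and Sult1c1 (3.28, 2.74 and 6.08 FPKM) were highest in mOSN, so that list was mixed. The part of other cell types in the HBC values of the synthetases was not tested.

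Every member had 1 row with an accepted estimate. The smallest implied counts were 28 fragments for Pars2 in HBC, 147 for Pars2 in GBC and 82 for Ears2 in mOSN. All 20 cytosolic genes reached 1 FPKM in each library, and their median was 9.70 FPKM in HBC, 18.8 FPKM in GBC and 15.2 in mOSN. Their sum was 242, 439 and 388 FPKM in the same order, or 0.143%, 0.239% and 0.163% of all summed FPKM. The cytosolic genes thus stood lowest as a group in HBC and highest in GBC, with mOSN between them.

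Sars, the serine enzyme, was the highest cytosolic gene in GBC at 62.1 FPKM and in mOSN at 52.4 FPKM, and had 26.7 FPKM in HBC. Nars, the asparagine enzyme, led in HBC at 31.0 FPKM and was nearly level across the libraries, with 35.6 FPKM in GBC and 36.6 in mOSN. Aars, the alanine enzyme, had 8.20 FPKM in HBC, 27.7 FPKM in GBC and 35.1 in mOSN. Together with the glycine gene Gars (9.73, 34.8 and 32.7 FPKM), they were among the highest cytosolic genes in GBC and mOSN. In HBC the next genes after Nars and Sars were Qars for glutamine, with 20.5 FPKM in HBC, 14.2 FPKM in GBC and 10.1 in mOSN, and Eprs, with 20.2, 30.3 and 29.7 FPKM. At the lower end, Cars for cysteine was at 4.26 FPKM in HBC, and Vars for valine was lowest in GBC at 8.29 FPKM and in mOSN at 6.44 FPKM.

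Of the 16 mitochondrial genes, 13 reached 1 FPKM in HBC and all 16 did so in GBC and in mOSN. Their median was 2.59 FPKM in HBC, 2.94 FPKM in GBC and 4.09 in mOSN, below the cytosolic median in every library. Mars2, Nars2 and Pars2, for methionine, asparagine and proline, were the members under 1 FPKM in HBC, at 0.606, 0.890 and 0.357 FPKM. Their levels were 1.40, 1.69 and 1.79 FPKM in GBC and 1.79, 2.31 and 1.96 FPKM in mOSN. Apart from Lars2, the highest mitochondrial genes were Iars2 for isoleucine, with 8.03 FPKM in HBC, 6.05 FPKM in GBC and 8.82 in mOSN, and Tars2 for threonine, with 4.66, 8.26 and 5.07 FPKM. Hars2 for histidine had 2.71, 7.86 and 5.82 FPKM, and Fars2 for phenylalanine had 5.57, 6.48 and 6.51 FPKM. The 15 mitochondrial genes without Lars2 summed to 41.5 FPKM in HBC, 61.7 FPKM in GBC and 57.6 in mOSN, lowest in HBC. As a share of all summed FPKM they were 0.0245%, 0.0336% and 0.0241%, about the same in HBC and mOSN and highest in GBC.

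**Figure D1:**
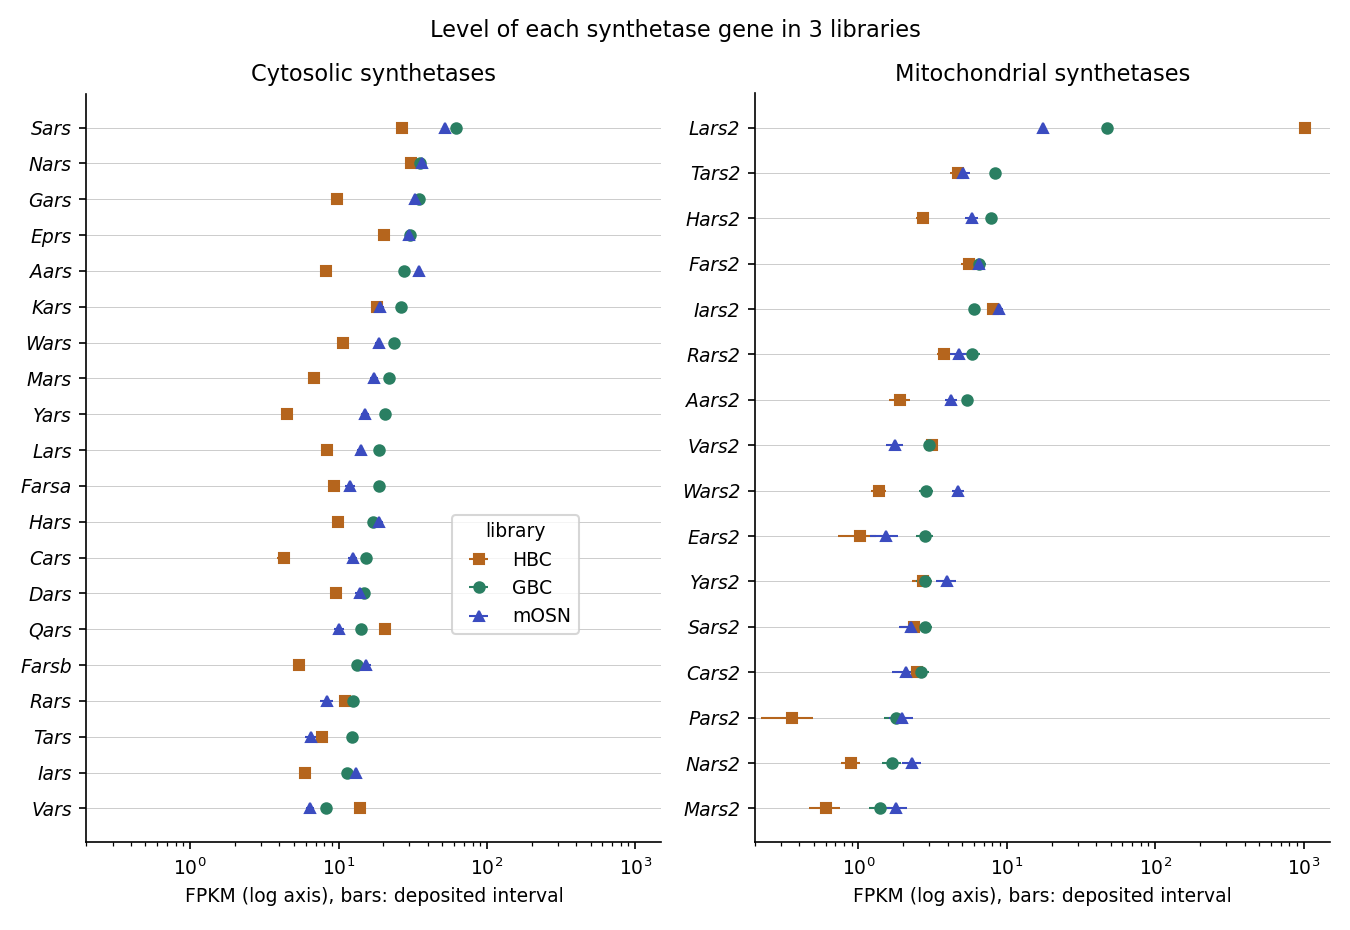
Level of each synthetase gene in the HBC, GBC and mOSN libraries, as FPKM on a log axis, cytosolic genes in 1 panel and mitochondrial genes in the other; bars are the deposited intervals and cover counting error. Lars2 stands at 1016 FPKM in HBC, while the other mitochondrial genes stay at or under 8.82 FPKM in all 3 libraries.

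Lars2, the mitochondrial leucine enzyme (chromosome 9, 123276058 to 123371782, mm9), departed from every other member. It had 1016 FPKM in HBC (interval 1011 to 1021), 47.5 FPKM in GBC (46.3 to 48.8) and 17.6 in mOSN (16.8 to 18.5). It was the gene with the 4th highest FPKM in HBC, ranked 635 in GBC and 3074 in mOSN. The values came from 148103, 5797 and 1714 implied fragments, which are 0.817%, 0.0320% and 0.0104% of each library. In HBC it made up 96.1% of the summed FPKM of the mitochondrial synthetases and lay 126.6-fold above Iars2, the next gene. In GBC it was still 5.75-fold above the next mitochondrial gene, and in mOSN it stood above the 8.82 FPKM of Iars2.

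In plain FPKM, Lars2 was 21.4-fold lower in GBC than in HBC and 2.69-fold lower in mOSN than in GBC. Of these steps, the one between mOSN and GBC lies within a single library kit. No other row overlaps the Lars2 locus, and the nearest gene, Limd1, is 16036 bases away. Mouse Lars2 is reported to hold a stretch that resembles mitochondrial ribosomal RNA, and the tables list 0 rows on the mitochondrial chromosome. The sources used here do not say how reads with several matches were assigned, so the FPKM of Lars2 is uncertain as a measure of its messenger RNA. The part of such reads in its value was not tested.

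The GBC and HBC libraries were compared first, for the step from reserve stem cell to neuronal precursor. Ratios are log2 of (FPKM + 1) over (FPKM + 1), which understates changes of low genes, and measured genes are those with 1 FPKM or more in 1 of the libraries compared. In GBC, 18 of 20 cytosolic synthetases lay above their HBC level, with a median log2 ratio of 0.89, and 13 of 16 mitochondrial ones did, with a median of 0.52. Over all measured genes, 61.0% lay above 0 and the median was 0.46. The implied fragments per FPKM of 1 gene differ between the libraries, and the cause was not tested. With 1 conversion factor per gene the medians were 0.34 for the cytosolic genes, 0.54 for the mitochondrial ones and 0.24 for all genes. The cytosolic median lay above that of all genes either way.

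At least 2-fold higher in GBC were 12 of 36 members (33.3%), against 34.6% of all measured genes, and 1 member was at least 2-fold lower, against 23.4% of all. The share of members called higher is near that of all genes. The 12 were Aars, Cars, Farsb, Gars, Lars, Mars, Sars, Wars and Yars in the cytosol and Aars2, Hars2 and Pars2 in mitochondria, and the lower one was Lars2. Pars2 was just inside the threshold at a log2 ratio of 1.04, and Farsa just outside it at 0.94. Under a stricter rule of 4-fold and 5 FPKM in the higher library, Lars2 was called lower at a log2 ratio of -4.39, and no member was called higher, against 16.5% and 15.5% of all genes of that level. Both Yars (2.11) and Aars (2.06) passed 4-fold higher with 1 conversion factor per gene, and Yars was at 2.16 with a pseudocount of 0.1 FPKM.

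The tyrosine gene Yars (chromosome 4, 128867039 to 128896851, mm9) had the highest ratio. It had 20.5 FPKM in GBC (interval 19.7 to 21.4), against 4.53 FPKM in HBC (4.11 to 4.94), a log2 ratio of 1.96. Gars (chromosome 6, 54987995 to 55029498) had 34.8 FPKM in GBC, against 9.73 FPKM in HBC, a log2 ratio of 1.74. For Aars (chromosome 8, 113557867 to 113580770) the levels were 27.7 FPKM in GBC and 8.20 FPKM in HBC, a log2 ratio of 1.64. The intervals of all 3 genes were far apart in these libraries. Cars had 15.4 FPKM in GBC and 4.26 in HBC, also 1.64, and the methionine gene Mars had 21.7 FPKM in GBC and 6.86 in HBC, a log2 ratio of 1.53. These 5 genes were the ones called higher in each of 6 settings of pseudocount and scaling. The Aars row overlaps Exosc6 by 532 bases, the Mars row overlaps Ddit3 by 68 and the Yars row overlaps C77080 by 30, and how reads of shared bases were split is not given.

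Of these leading genes, Aars, Gars and Yars hold the TGATGNAA core printed above. Mars was searched and lacked it, and Cars has no promoter entry. The other cytosolic genes with a core were Iars, with 11.4 FPKM in GBC and 5.93 in HBC, and Tars, with 12.3 FPKM in GBC and 7.80 in HBC. Their log2 ratios were 0.84 and 0.60. Over the 5 cytosolic genes with the core the median log2 ratio was 1.64, and over the 8 with a promoter entry and no core it was 0.75. With 1 conversion factor per gene these medians were 1.45 and 0.27. The ranges overlapped, from 0.60 to 1.96 with the core and from -0.50 to 1.53 without it, and a match of letters does not show a bound site.

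Sars, Wars and Lars were called higher with smaller ratios. Sars had 62.1 FPKM in GBC and 26.7 in HBC, a log2 ratio of 1.19. The tryptophan gene Wars had 23.5 FPKM in GBC and 10.7 in HBC, a log2 ratio of 1.06. Its human counterpart is known to be induced by interferon-gamma, and 10 of 11 genes of an interferon and MHC class I list were at least 2-fold lower in GBC, against 23.4% of all genes, with a sum of 29.1 FPKM in GBC and 1308 FPKM in HBC. A link between the level of Wars and that list was not tested. Lars, the cytosolic leucine gene, had 18.9 FPKM in GBC and 8.31 in HBC, a log2 ratio of 1.09, opposite to Lars2. With 1 conversion factor per gene, however, the Lars ratio was 0.26. Farsb, the beta subunit of the phenylalanine enzyme, had 13.4 FPKM in GBC and 5.45 in HBC, and the alpha subunit Farsa had 18.7 FPKM in GBC and 9.28 in HBC. Their log2 ratios were 1.16 and 0.94, and 0.22 and 1.52 with 1 conversion factor per gene, so the order of the subunits differed between the scales.

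On the other side, Vars and Qars were the cytosolic genes lower in GBC, neither by 2-fold. Vars had 8.29 FPKM in GBC and 14.0 in HBC, a log2 ratio of -0.69, against 0.53 with 1 conversion factor per gene. Qars had 14.2 FPKM in GBC and 20.5 in HBC, a log2 ratio of -0.50, and -0.57 with 1 conversion factor. The arginine gene Rars (12.5 FPKM in GBC, 11.1 in HBC) and Nars (35.6 in GBC, 31.0 in HBC) were close to level, at 0.16 and 0.19, but at -0.90 and -0.73 with 1 conversion factor. Altogether 15 of 36 members moved by more than 1.5-fold and 8 changed sign between the ways of scaling, so the direction of small ratios against HBC depended on the scaling.

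**Figure D2:**
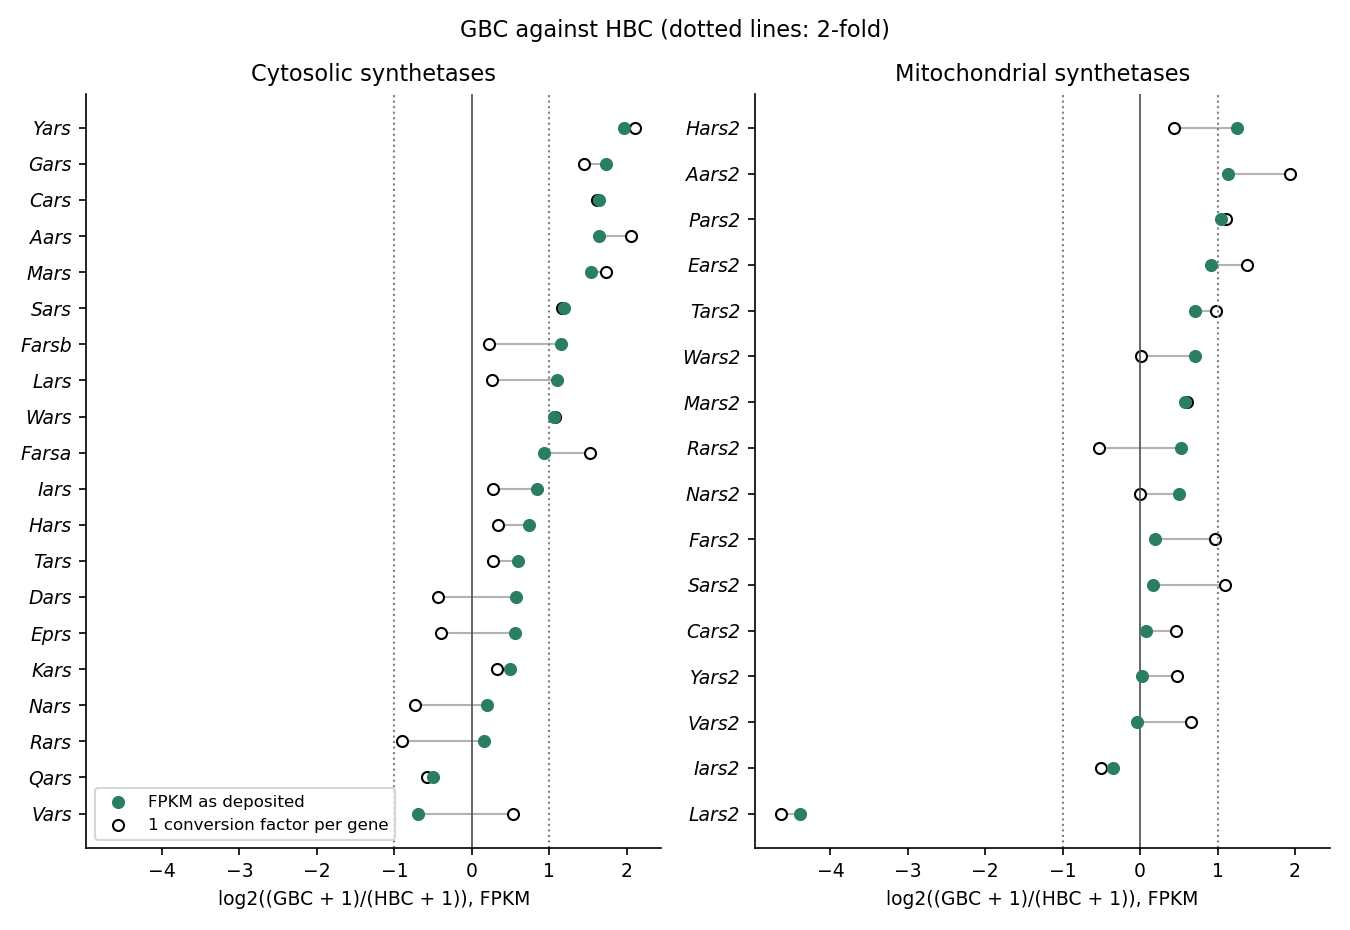
Log2 ratio of (FPKM + 1) in GBC over HBC for each synthetase gene; filled points use FPKM as deposited, open points 1 conversion factor per gene, and dotted lines mark 2-fold. Yars, Gars, Aars, Cars, Mars, Sars, Wars, Aars2 and Pars2 lie beyond 2-fold higher with both. Lars, Farsb and Hars2 lie beyond it with the deposited values alone, and Lars2 lies at -4.39 and -4.64.

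Among mitochondrial genes in GBC against HBC, Hars2 (7.86 FPKM in GBC, 2.71 in HBC) had a log2 ratio of 1.25 and Aars2, for alanine, (5.37 in GBC, 1.90 in HBC) had 1.13. Their ratios were 0.44 and 1.94 with 1 conversion factor per gene, so Hars2 was no longer called. Pars2 had 1.79 FPKM in GBC and 0.357 in HBC, on few fragments, a ratio of 1.04 after the pseudocount. Hars and Hars2 lie 74 bases apart on chromosome 18, and both were higher in GBC, Hars with 17.1 FPKM in GBC and 9.88 in HBC. Iars2 was the mitochondrial gene besides Lars2 with a lower level in GBC by more than its interval, at 6.05 FPKM in GBC and 8.03 in HBC. The Iars2 row overlaps those of Rab3gap2, Mir194-1 and Mir215, and how reads of shared bases were split is not given. The intervals of the GBC and HBC libraries were apart for 30 of 36 members, against 91% of all genes. The 6 that overlapped were Rars in the cytosol and Cars2, Fars2, Sars2, Vars2 and Yars2 in mitochondria.

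The step from precursor to mature neuron was read from mOSN and GBC, whose libraries share a kit. Most synthetases were slightly lower in mOSN. Of 20 cytosolic genes, 15 were below their GBC level, and the median log2 ratio was -0.30. Of 16 mitochondrial genes, 9 were below, with a median of -0.23. All measured genes went the other way, with 60.2% above 0 and a median of 0.24. With 1 conversion factor per gene the cytosolic median was -0.48, the mitochondrial -0.49 and that of all genes -0.07, so the members lay below all genes on both scales. None of the 36 members was at least 2-fold higher in mOSN, against 22.4% of all genes, and Lars2 alone was at least 2-fold lower, against 10.3% of all. At 4-fold no member was called in either direction, against 7.12% of genes higher and 3.16% lower.

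Tars showed the next lowest ratio after Lars2, with 6.53 FPKM in mOSN (interval 5.94 to 7.13) and 12.3 in GBC (11.6 to 13.0), a log2 ratio of -0.82. Farsa had 12.0 FPKM in mOSN and 18.7 in GBC, a ratio of -0.60, and Rars had 8.36 FPKM in mOSN and 12.5 in GBC, -0.52. With 1 conversion factor per gene Tars (-1.03), Farsa (-1.13) and Vars (-1.04) passed 2-fold as well. The 12 members above their GBC level (5 cytosolic and 7 mitochondrial) differed from it by at most 0.56, and 6 of the 36 were above it with 1 conversion factor. Aars had 35.1 FPKM in mOSN and 27.7 in GBC, a log2 ratio of 0.33 that was -0.17 with 1 conversion factor. Wars2, the mitochondrial tryptophan gene, had 4.71 FPKM in mOSN and 2.87 FPKM in GBC, a ratio of 0.56 that was 0.53 with 1 conversion factor. The intervals of mOSN and GBC overlapped for 12 of 36 members, among them Eprs, Dars, Gars, Hars and Nars, and were apart for 24 members, against 80.3% of all genes.

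Taking the stages together, 20 of 36 members (13 cytosolic and 7 mitochondrial) had their highest FPKM in GBC, 12 in mOSN and 4 in HBC. Among 14594 genes measured in any library, 26.6% were highest in GBC, 43.6% in mOSN and 29.8% in HBC. The number of members highest in GBC was 24 with 1 conversion factor per gene, 27 after scaling to a common sum of FPKM and 17 after median-of-ratios scaling. Beside these counts, 33.9%, 34.2% and 24.0% of all genes were highest in GBC. The 4 highest in HBC were Lars2, Qars, Vars and Vars2, the mitochondrial valine gene, with 3.11 FPKM in HBC, 3.01 FPKM in GBC and 1.76 in mOSN. The number highest in HBC was 8 with 1 conversion factor, where Vars and Vars2 were highest in GBC, and 11 after median-of-ratios scaling. The shares of all genes highest in HBC were then 37.0% and 39.6%.

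**Figure D3:**
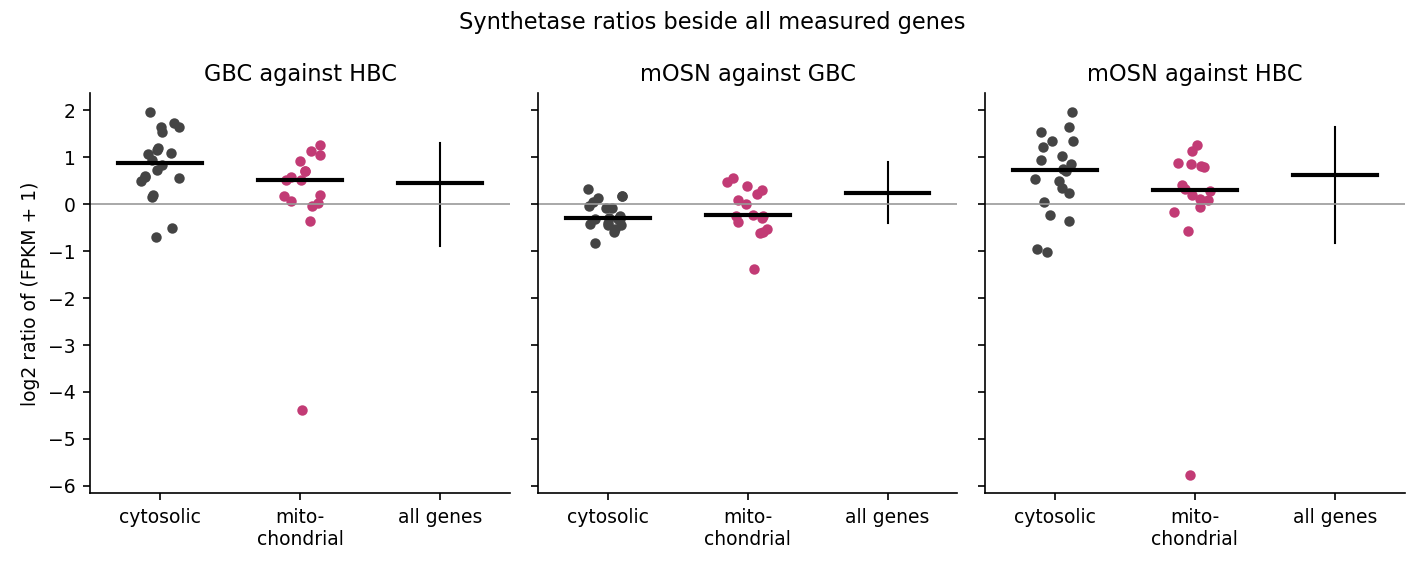
Log2 ratios of (FPKM + 1) for GBC against HBC, mOSN against GBC and mOSN against HBC; each point is a synthetase gene, thick lines are medians, and the thin line spans the middle quartiles of all measured genes. Against GBC, the mOSN medians are -0.30 for cytosolic and -0.23 for mitochondrial genes, beside 0.24 for all genes, and Lars2 lies far below the other points.

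The mOSN and HBC libraries share samples with both comparisons above, so their values add no separate evidence. In mOSN, 16 of 20 cytosolic genes lay above HBC, with a median log2 ratio of 0.72, and 12 of 16 mitochondrial genes, with a median of 0.30. Of all genes, 63.7% lay above 0, with a median of 0.63. After setting 1 conversion factor per gene, 11 of 20 cytosolic and 11 of 16 mitochondrial genes lay above HBC, and the medians were 0.31, 0.07 and 0.12 for cytosolic, mitochondrial and all genes. At least 2-fold higher in mOSN were 9 members (Aars, Cars, Farsb, Gars, Iars, Mars, Pars2, Wars2 and Yars), against 40.4% of all genes. Lars2 and Vars were at least 2-fold lower, against 23% of all genes. Vars was at -0.50 with 1 conversion factor, while Qars (-1.26) and Rars (-1.29) passed 2-fold lower. At 4-fold, 24% of genes of 5 FPKM or more were higher in mOSN and 15.8% lower, and Lars2 was the 1 member called, at a log2 ratio of -5.77. Vars was just inside the 2-fold threshold, at -1.01, and Sars just outside it, at 0.95. Aars, Gars and Yars were the members called higher in each of 6 settings. The intervals were apart for 28 members, against 91.4% of all genes.

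The enzymes of the multi-synthetase complex were set beside the other cytosolic enzymes. In GBC against HBC, the 8 complex enzymes (Dars, Eprs, Iars, Kars, Lars, Mars, Qars and Rars) had a median log2 ratio of 0.56, and the 12 outside the complex 1.11. With 1 conversion factor per gene these were -0.07 and 1.12, so the median of the enzymes outside the complex was about the same on both scales and that of the complex enzymes was not. Within the complex, Mars stood out at 1.53, whereas Kars, for lysine, had 26.2 FPKM in GBC and 18.3 in HBC, a ratio of 0.50. Dars, for aspartate, had 14.8 FPKM in GBC and 9.66 in HBC, a ratio of 0.57. In mOSN against GBC, both groups were slightly lower, with medians of -0.35 in the complex and -0.26 outside it.

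The non-enzymatic scaffolds of the complex were Aimp1, Aimp2 and Eef1e1. Aimp2 had 3.14 FPKM in HBC, 13.0 FPKM in GBC and 9.98 in mOSN, and Eef1e1 had 2.68, 8.90 and 6.11 FPKM. Aimp1 had 14.5, 22.9 and 17.9 FPKM, so each scaffold was highest in GBC. Their median log2 ratio in GBC against HBC was 1.43, and 0.53 with 1 conversion factor per gene. By class, the cytosolic class I genes had a median of 1.06 and the class II genes 0.84 in GBC against HBC, a difference well inside the spread of either class.

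For 16 amino acid pairings of a cytosolic and a mitochondrial gene, the cytosolic level was the higher in 14 in HBC and in 15 in GBC and mOSN. The median ratio of cytosolic over mitochondrial FPKM was 3.98 in HBC, 5.48 in GBC and 3.89 in mOSN. All ratios of pairs use FPKM as deposited, so their changes between libraries can depend on the scaling. Serine showed a wide gap in every library, with Sars over Sars2 at 11.2, 22.3 and 23.3, since Sars2 had 2.37, 2.79 and 2.25 FPKM. In GBC against HBC the log2 ratios of Sars and Sars2 were 1.19 and 0.17 as deposited. With 1 conversion factor per gene they were 1.16 and 1.09, so the wider serine gap in GBC depended on the scaling. Eprs over Pars2 was 56.6, 16.9 and 15.1 in HBC, GBC and mOSN, and Nars over Nars2 was 34.8, 21.1 and 15.8. In both pairings the mitochondrial member was under 1 FPKM in HBC. Tyrosine moved the other way, with Yars over Yars2 at 1.67 in HBC, 7.36 in GBC and 3.82 in mOSN, since Yars2 stayed between 2.72 and 3.95 FPKM. For threonine, Tars over Tars2 was nearly even throughout, at 1.67, 1.49 and 1.29. Tarsl2, a paralogue of Tars outside the list, had 78.8 FPKM in mOSN and was left out of this pairing.

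Leucine was the amino acid whose mitochondrial gene led in all 3 libraries. Lars over Lars2 was 0.00818 in HBC, 0.397 in GBC and 0.801 in mOSN. Isoleucine was the other case in HBC, with Iars over Iars2 at 0.739, against 1.89 in GBC and 1.48 in mOSN. Cysteine widened in the neuronal lineage libraries, from a Cars over Cars2 ratio of 1.73 in HBC to 5.81 in GBC and 5.95 in mOSN, as Cars2 had 2.47, 2.65 and 2.09 FPKM.

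**Figure D4:**
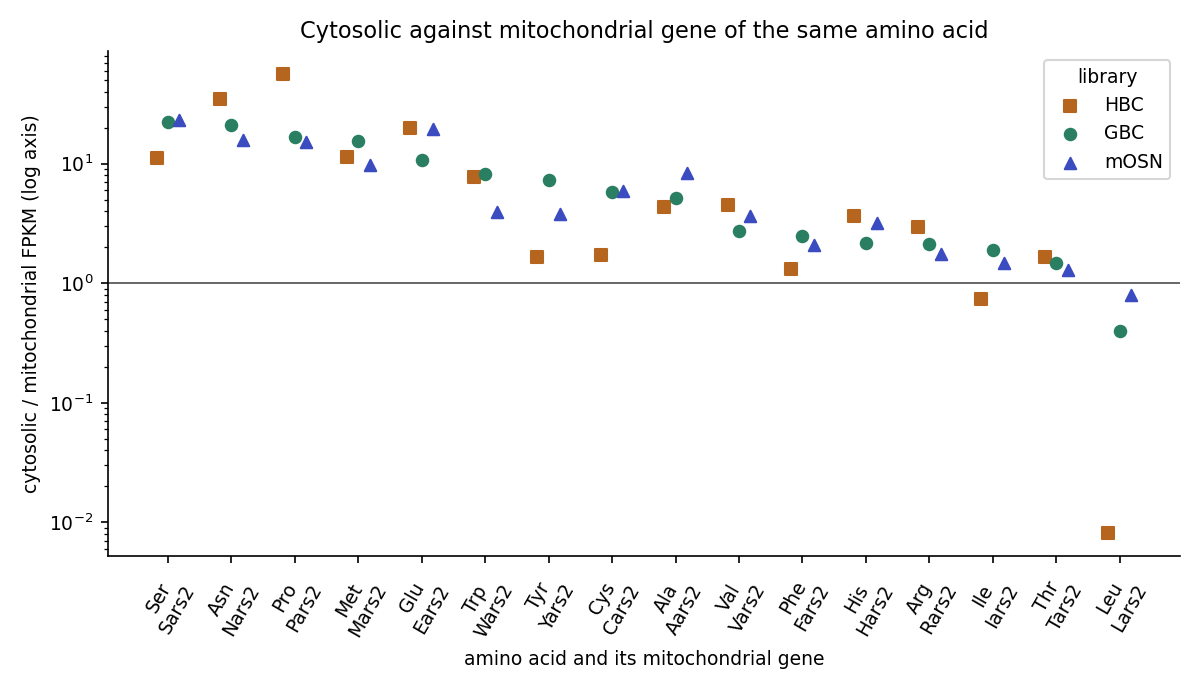
Cytosolic over mitochondrial FPKM, on a log axis, for each amino acid with a gene of each kind, in HBC, GBC and mOSN; for phenylalanine the cytosolic value is the mean of Farsa and Farsb. Nearly all points lie above 1, and leucine lies below it in each library, at 0.00818, 0.397 and 0.801.

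Other genes of the pathway were read from lists. In mitochondria, Gatb (listed as Pet112l), Gatc and Qrsl1 form the amidotransferase that replaces a glutaminyl-tRNA synthetase. Gatc had 6.23 FPKM in HBC, 18.3 FPKM in GBC and 30.4 in mOSN, and Qrsl1 had 1.20, 3.02 and 5.05 FPKM, so both were lowest in HBC and highest in mOSN. Pet112l had 1.60, 4.76 and 2.94 FPKM. Of 10 mitochondrial translation factors, 4 were at least 2-fold higher in GBC than in HBC and 0 were lower, against 34.6% and 23.4% of all genes. The median log2 ratio was 0.73. They were Gfm2, Mrrf, Mtif3 and Tufm, factors of elongation, ribosome recycling and initiation, and with 1 conversion factor per gene Mtif3 and Tufm were left. In mOSN against GBC, 0 of the 10 passed 2-fold, beside 22.4% of all genes higher and 10.3% lower, and the median was -0.13.

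Of 6 cytosolic elongation factor genes, 2 were at least 2-fold higher and 2 lower in GBC than in HBC, beside 34.6% and 23.4% of all genes. Eef1a1 and Eef1a2 encode the alternative forms of the factor that carries charged transfer RNA to the ribosome. Eef1a1 had 1141 FPKM in HBC, 1118 FPKM in GBC and 508 in mOSN, and Eef1a2, the form known from mature neurons and muscle, had 3.82, 52.2 and 217 FPKM. The log2 ratios of Eef1a2 were 3.46 for GBC against HBC and 2.03 for mOSN against GBC. Eef2, the translocation factor, had 447, 457 and 221 FPKM, and like Eef1a1 was at least 2-fold lower in mOSN than in GBC. In GBC against HBC the log2 ratios of Eef1a1 and Eef2 were -0.03 and 0.03, and -0.54 and 0.78 with 1 conversion factor per gene. In mOSN against GBC, 3 of the 6 genes were at least 2-fold lower and 1 was higher, beside 10.3% and 22.4% of all genes.

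Among 4 proofreading genes, 1 was at least 2-fold higher in GBC than in HBC, among 13 genes of tRNA end processing 3 were, and among 6 selenocysteine genes 3 were, against 34.6% of all genes. None of these genes was 2-fold lower, against 23.4% of all. On the scale of 1 conversion factor per gene the lists had 1, 4 and 4 higher genes, while Prorsd1 (-1.38), Elac1 (-1.43) and Rpp30 were lower. On that scale 4405 of 13700 genes were higher and 3746 lower. As deposited, their median log2 ratios were 0.84, 0.79 and 1.03, beside 0.46 for all genes.

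Genes of the ATF4 amino acid response went both ways. Of 21 measured genes, 6 were at least 2-fold higher and 5 lower in GBC than in HBC, near the shares of all genes (34.6% and 23.4%). The median log2 ratio was -0.26, and 0.59 with 1 conversion factor per gene. Atf4 itself had 138 FPKM in HBC, 103 FPKM in GBC and 95.02 in mOSN. Among the higher genes were Trib3, a pseudokinase (0.997, 17.5 and 20.8 FPKM in HBC, GBC and mOSN), the mitochondrial folate enzyme Mthfd2 (1.83, 17.2 and 9.65 FPKM), the asparagine synthetase gene Asns (1.54, 9.48 and 8.91 FPKM) and Ddit3, which encodes the stress factor CHOP (12.2, 44.2 and 56.7 FPKM). The amino acid transporter gene Slc7a5 had 12.6, 36.2 and 54.8 FPKM. Among the lower ones were Cebpb, a transcription factor (137, 3.09 and 12.4 FPKM), Nupr1 (10.2, 1.20 and 2.83 FPKM) and Ppp1r15a, a phosphatase subunit (118, 41.8 and 62.5 FPKM). The log2 ratio of Cebpb in GBC against HBC was -5.08, and -1.89 with 1 conversion factor per gene. On that scale Nupr1 was at -2.30, and Ppp1r15a, at -0.78, was no longer 2-fold lower. The sum of macrophage genes was 4015 FPKM in HBC and 6.29 FPKM in GBC, and the part of such cells in these values was not tested.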

How the data were processed

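The members and gene lists were chosen with earlier results of these data known. Poly-A RNA was measured in 1 library each of HBC, GBC and mOSN, and samples were grouped by title. Per the file headers, the authors deposited FPKM per gene with an interval and a quality status. Cufflinks, TopHat and Bowtie appear without versions in the submitters' processing notes, as does the build mm9. The sources used here name neither the annotation nor the options. The 3 samples of 5hmC and 3 of 5mC were not analysed here.

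Rows of 1 symbol were added up (222 symbols), and locus starts were raised by 1. Log2 ratios used a pseudocount of 1 FPKM. A fragment number n was read from each interval, whose half-width is 2 times the FPKM over the square root of n. Of rows with at most 100 such fragments, 77.4%, 68.9% and 68.8% in HBC, GBC and mOSN lay within 0.03 of a whole number. The fragments behind 1 FPKM of a gene spanned 8.16-fold between GBC and HBC and 2.26-fold between mOSN and GBC (5th to 95th percentile of genes). The alternative with 1 conversion factor per gene removes this difference. Reads amplified without molecular identifiers are not independent molecules, so intervals cover counting error only. No test was possible with 1 library per group. All 36 members could be named, with 4 genes at most from each list by ratio and level, though some further list members are named to complete small lists and the ATF4 description. The scripts, in Python 3.11.15 with pandas 2.3.3 and numpy 2.4.6, were tested on simulated data. Alternatives were pseudocounts of 0.1 and 5 FPKM, filters, other scalings, the highest row per symbol and leaving out genes.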

Additional observations from a re-analysis of the deposited data

How the results depend on the processing

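No paired analysis was possible because each population has 1 library. Of 129 recomputed group medians and counts, 111 kept their sign and stayed within 1.5-fold of the main value (as a shift on the log2 scale for medians, as a ratio for counts), 17 did not and 1 passed 2-fold. The cytosolic median for GBC against HBC (0.89) was 1.13 with a filter at 20 FPKM, over 10 genes; too few mitochondrial genes passed that filter for a median. The mitochondrial median for mOSN against HBC (0.30) was -0.0395 after scaling to a common sum and -0.12 after median-of-ratios scaling. Those scalings move the median of all genes for mOSN against HBC to 0.19 and 0.10, from 0.63. For GBC against HBC they move it to 0.36 and -0.00, and for mOSN against GBC to -0.10 and 0.16. The count of members at least 2-fold higher in GBC than HBC (12) was 6 with a pseudocount of 5 FPKM, 6 with the filter at 20 FPKM and 5 with median-of-ratios scaling, which also gave 2 lower. Over all genes, 4757 of 13736 were higher in the main setting. That count was 2176 of 13736 with the pseudocount of 5 FPKM and 3408 of 13848 with median-of-ratios scaling, which gave 4058 lower. It was not made for the filter. The count higher in mOSN than HBC (9) was 3 with a pseudocount of 5 FPKM, 2 with the filter at 20 FPKM, 3 with a common sum and 3 with median-of-ratios scaling, and the count lower (2) was 1 with the first pair of settings. Among all genes, 5692 of 14092 were higher in mOSN than HBC in the main setting. With that pseudocount 3251 of 14092 were higher, with a common sum 4413 of 14132 and with median-of-ratios scaling 4253 of 14261. Lower were 3244 in the main setting and 1735 with that pseudocount. Lower in mOSN than GBC were 2 members with a common sum and 4 with 1 conversion factor, beside 1969 of 12501 and 2071 of 12466 genes. Without Lars2 the counts of lower members were 0, 0 and 1 for GBC against HBC, mOSN against GBC and mOSN against HBC. The cause of these shifts was not tested. By construction, a higher pseudocount shrinks the ratios of low genes, and a higher filter leaves fewer low genes. Of 540 values of single members, 416 kept their direction and their side of 2-fold and moved by at most 1.5-fold. A change of sign between very small log2 ratios was counted as kept. Lars2 kept its direction in every setting, from -4.28 to -4.89 for GBC against HBC and from -1.21 to -1.74 for mOSN against GBC. Depth limits the low mitochondrial genes, such as Pars2 in HBC, with 28 fragments.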

Other observations

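A synthetase gene outside the list of 36 was noted after its values had been seen. Tarsl2 (chromosome 7, 72789784 to 72836979, mm9), a paralogue of the threonine enzyme gene, had 2.49 FPKM in HBC (interval 2.25 to 2.74), 10.004 FPKM in GBC (9.46 to 10.6) and 78.8 in mOSN (76.8 to 80.8). Its log2 ratio was 2.86 for mOSN against GBC, and 2.27 with 1 conversion factor per gene. Tars had 7.80, 12.3 and 6.53 FPKM in the same libraries, so the paralogue was the lower of the pair in HBC and the higher one in mOSN. Reads that match both genes could have been split between them, and how they were assigned is not given.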
